A study of Saccharomyces cerevisiae with 40 samples.

Results

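The 4 haploid strains 16a, 16b, 16c and 16d are the sister spores of a single ascus, number 16, of a cross between the laboratory yeast S288C and the wine yeast derivative 59A. They were taken by their labels. They are 4 of the 30 segregants and of the 40 arrays of the series, and the segregants came from 21 asci, of which ascus 16 is the only one with all 4 spores. The other groups used here are S288C (5 cultures), 59A (5 cultures) and the 26 other segregants of the same cross (1 culture each). S288C is the reference laboratory strain (*SUC2*, *gal2*, of mating type a by the labels and alpha by the methods). 59A is a haploid, *ho* derivative of EC1118, a commercial wine yeast, with mating type a. All strains fermented MS300, a synthetic grape must, at 28 °C, and RNA was taken halfway, after the release of 45 g of CO2. No treatment was given, and the genotypes at single loci were not used here.

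A tetrad holds the complete product of one meiosis. A nuclear locus at which the parents carry different alleles goes to the spores 2 to 2, whereas mitochondrial DNA and other cytoplasmic elements do not follow that ratio. The level of a transcript can follow a local allele, many loci at once, or none that the parents differ in, so a 2 to 2 split of levels is only the simplest of the patterns a tetrad can give. Full tetrads were rare in this cross, because many of its spores did not grow.

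Expression was measured on 2-colour arrays as the log2 ratio of a strain over a pool of RNA of the 30 segregants, so that 0 is the level of the pool and a difference of 1 is 2-fold. Each spore was grown once for RNA and gave 1 array value per gene, which is a mean of 2 technical hybridisations. No test was therefore made among the spores. The 5 cultures of each parent, of which the labels do not say how far they were separate from preculture on, served as the measure of spread through s, the SD of a single array moderated over all genes by limma. Its median over the 4388 genes was 0.11, against a median SD of 0.25 among the 4 spores and of 0.29 among the 26 other segregants. Precision is limited by how many arrays there are, and p-values between the parents measure only the spread between these cultures. No 2 arrays were identical, and no gene lacked a value in a spore.

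16a and 16b were much alike and 16d stood farthest from them. Over the 4388 genes r was 0.73 between 16a and 16b, 0.32 between 16a and 16c, 0.33 between 16b and 16c, 0.32 between 16c and 16d, 0.03 between 16b and 16d and -0.15 between 16a and 16d. These are correlations over genes that share a reference pool, given as a description. At least 2-fold apart were 39 genes between 16a and 16b, 218 between 16b and 16c, 222 between 16c and 16d, 242 between 16a and 16c, 379 between 16b and 16d and 484 between 16a and 16d. Between cultures of 1 parent it was 0 to 16 in S288C and 0 to 3 in 59A. Every pair of sister spores thus differed in more genes than any pair of cultures of a parent. The spread of r among the sisters lay within that among all 30 segregants, where it ran from -0.44 to 0.86 with a median of 0.33. The direction of the ratio, strain over pool, is that of the methods which state the dyes, and was kept although some arrays correlate below 0.

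**Figure D1:**
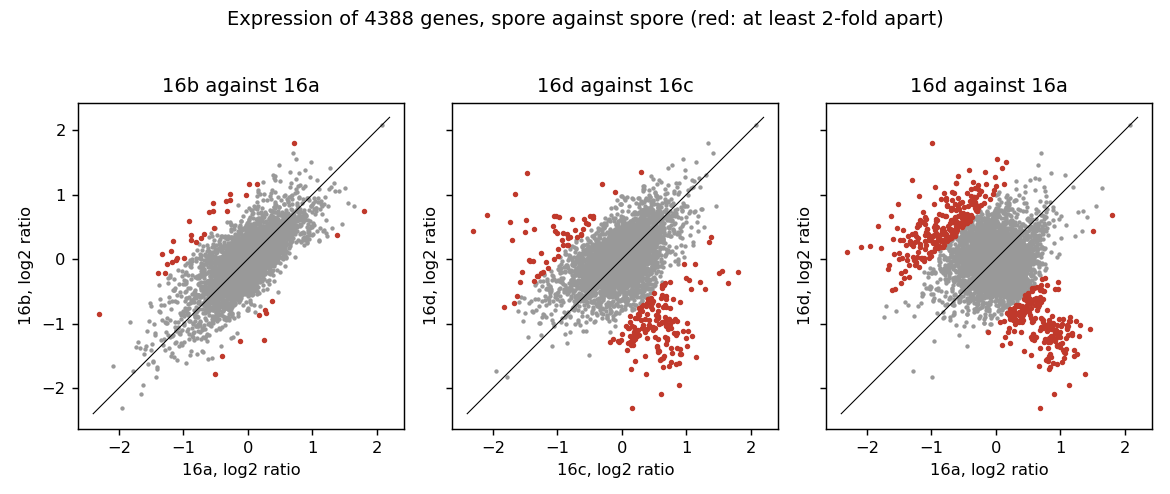
Log2 ratio over the pool of 30 segregants of each of 4388 genes in 16b against 16a, 16d against 16c and 16d against 16a, with the line of equal levels. Red points are genes at least 2-fold apart, 39, 222 and 484 in the 3 panels.

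Between S288C and 59A 1352 of 4388 genes differed at an adjusted p under 0.01 (limma, Benjamini-Hochberg adjustment, 30.8% of all). S288C had the higher level in 603 (13.7%) and 59A in 749 (17.1%). Of these, 609 (13.9% of all genes) had parental means at least 4 s apart and are called here the genes that set the parents apart. S288C was the higher parent in 284 and 59A in 325. The gene nearest to the limit inside was *PRM3* at 4.004 s and the nearest outside *SAR1* at 3.999 s. In each of the 609 genes a spore was called S288C-like or 59A-like when it lay more than 1 s from the midpoint of the parental means on that parent's side, and between otherwise. All 4 spores were placed in 351 of the 609 genes (57.6%).

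Splits of 3 spores to 1 and of all 4 to none were far more numerous than splits of 2 to 2. Written as S288C-like spores to 59A-like spores, the split was 4 to 0 in 106 genes (17.4% of 609), 3 to 1 in 142 (23.3%), 2 to 2 in 26 (4.27%), 1 to 3 in 22 (3.61%) and 0 to 4 in 55 (9.03%). In the other 258 genes at least 1 spore lay between. Of the genes in which it was placed, 16a was S288C-like in 78.4%, 16b in 74.5%, 16c in 63.9% and 16d in 45.8%, where the 26 other segregants ranged from 27.0% to 78.4% with a median of 61.0%. 16a was thus at the S288C end of the range that the other segregants span. These shares are counts over genes of 1 array, and genes regulated together are not independent. Nor do they measure likeness of a whole array to a parent. Over all genes r with the S288C mean was 0.46 in 16a, 0.16 in 16b, 0.23 in 16c and -0.02 in 16d. With the 59A mean r was 0.11, -0.08, 0.11 and 0.10 over genes.

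The number of genes split 2 to 2 depends on where the midpoint is set. The mean of the 26 other segregants lay off the mid-parent value by a median of 0.185 on the log2 scale, more than the median s. With that mean as the midpoint, an alternative added after the data were seen, 58 genes were split 2 to 2, 142 were 3 to 1, 24 were 1 to 3, 32 were 4 to 0 and 4 were 0 to 4. The number split 3 to 1 was thus the same, that of 2 to 2 was larger, and those of 4 to 0 and 0 to 4 were much smaller.

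**Figure D2:**
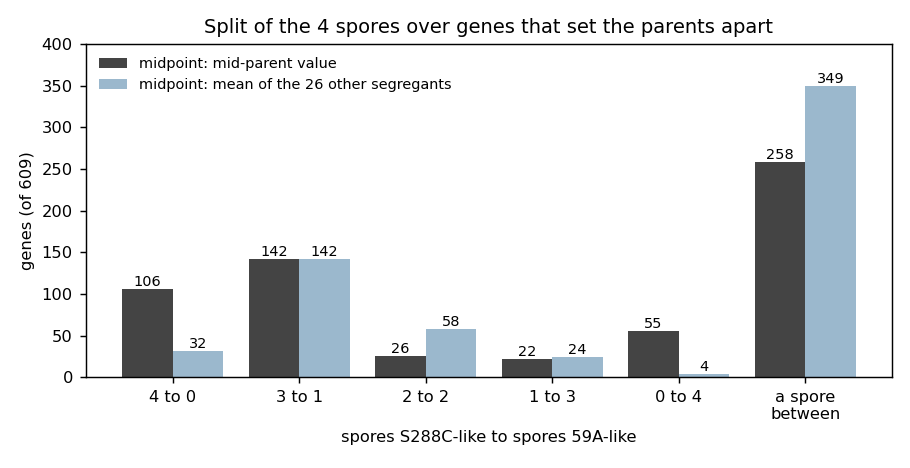
Number of the 609 genes that set the parents apart (vertical axis) by the number of S288C-like to 59A-like spores (horizontal axis), with the mid-parent value (dark) or the mean of the 26 other segregants (light) as the midpoint. The split of 2 to 2 holds 26 genes with the first and 58 with the second, and 3 to 1 holds 142 with both.

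In all 4 spores most *PAU* genes had the low level of S288C. *PAU*, *DAN* and *TIR* genes encode cell wall mannoproteins, many of them in subtelomeric families that are repressed by oxygen. Of the 27 measured, 26 were higher in 59A (limma, adjusted p under 0.01, 17.1% of all genes were), 23 set the parents apart, 19 of these were S288C-like in all 4 spores and none was 59A-like in all. *PAU5* had -0.34 in 16a, -0.95 in 16b, -0.61 in 16c and -0.82 in 16d. Its S288C cultures were at -0.47, -0.34, -0.42, -0.52 and -0.53 and those of 59A at 1.80, 2.09, 2.09, 2.09 and 1.80, the upper end of the scale. 16a thus lay within the S288C cultures, the other 3 below them, and all 4 far from 59A (difference S288C minus 59A -2.43, standard error 0.075, limma adjusted p = 2.3e-10). *PAU4* had -0.62, -0.76, -0.65 and -1.02 in 16a to 16d and *PAU12* -0.80, -1.04, -0.81 and -0.90. The median of the 27 genes was -0.34 in 16a, -0.50 in 16b, -0.28 in 16c and -0.66 in 16d, where S288C cultures had -0.46 to -0.24, 59A cultures 0.79 to 1.21, and the median of all genes was between -0.01 and 0.01 in each spore. Among the 26 other segregants this median ran from -1.20 to 1.04. Most of these segregants were S288C-like too, 19 for *PAU5*, 20 for *PAU4* and 19 for *PAU12*, with 3, 3 and 6 59A-like. The 4 other genes that set the parents apart, *PAU2*, *PAU9*, *DAN1* and *TIR4*, each had a spore between the parents. *PAU2* had 0.61 in 16c against -0.55, -0.32 and -0.61 in 16a, 16b and 16d, where the S288C mean was 0.15 ± 0.11 and that of 59A 1.12 ± 0.09 (SD, n = 5). Members of the family are near-identical, so their probes may read each other's transcripts.

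Most transcripts of the mitochondrial genome that set the parents apart were S288C-like in all 4 spores too. *AI2*, which encodes a maturase in an intron of *COX1*, had 0.56 in 16a, 0.45 in 16b, 0.50 in 16c and 0.47 in 16d. The S288C cultures gave 0.02, 0.31, -0.15, 0.15 and 0.18 and those of 59A -2.09, -2.09, -1.95, -2.09 and -2.09, which are steps of rank near the lower end of the scale. All 4 spores were above every S288C culture and differed among themselves by 0.11. *AI1* (0.22, -0.06, 0.29 and 0.39 in 16a to 16d, against -0.17 ± 0.14 in S288C and -1.53 ± 0.05 in 59A), *AI3* and *AI5_ALPHA*, further introns of *COX1*, were S288C-like in all 4 as well. Of 16 mitochondrial transcripts 6 set the parents apart, 4 of them were S288C-like in all 4 spores, and in the other 2, *AI4* and *BI4*, no spore was 59A-like. *AI2* was S288C-like in 22 of the 26 other segregants and 59A-like in 3. With the mean of these segregants as the midpoint, *AI2*, *AI3* and *AI5_ALPHA* kept the 4 to 0 split and *AI1* did not, whereas *BI4* became 59A-like in all 4 spores and *AI4* in 16a, 16b and 16c. *COX1* itself did not differ detectably between the parents (0.27 ± 0.19 and 0.28 ± 0.26, SD, n = 5, limma adjusted p = 0.95) and was 0.49 to 0.62 in the spores.

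**Figure D3:**
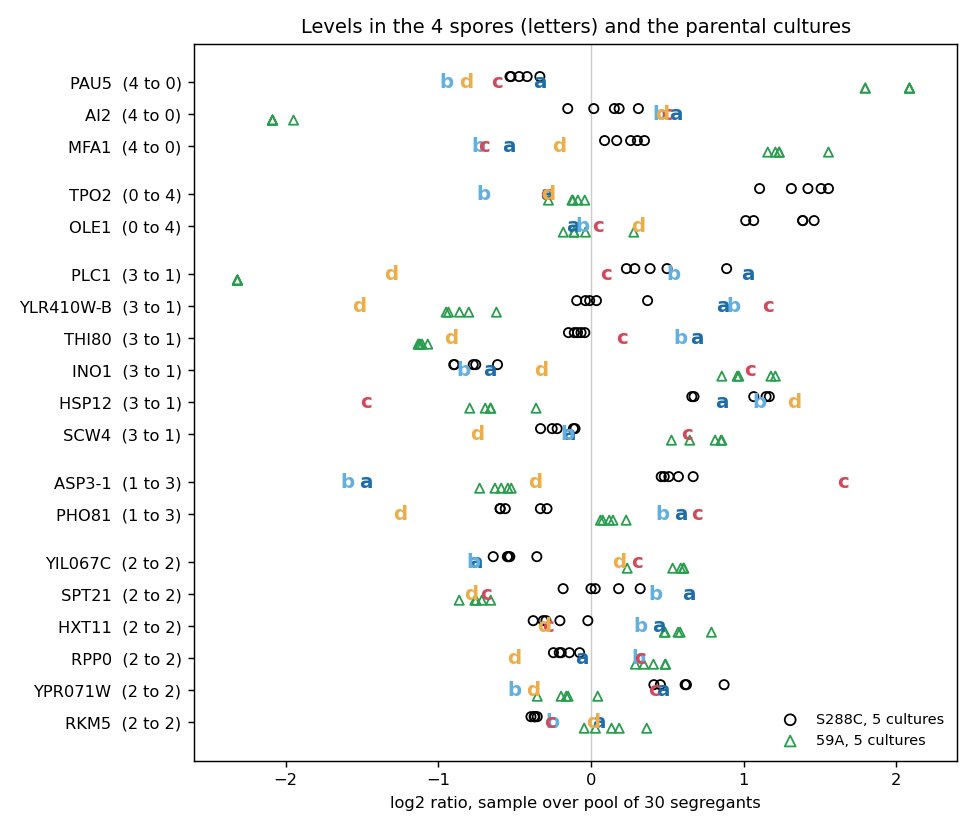
Log2 ratio over the pool (horizontal axis) of 19 genes in 16a, 16b, 16c and 16d (letters a to d), in the 5 S288C cultures (circles) and in the 5 59A cultures (triangles), ordered by the split of the spores. For *PLC1*, *YLR410W-B* and *THI80* the letter d stands on the 59A side of the midpoint and the others on the S288C side. For *YIL067C* and *SPT21* the letters a and b stand on the S288C side and c and d on the 59A side.

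All 4 spores were 59A-like in 55 genes, which says only that they lay on that side of the midpoint. Many of these levels were outside all 10 parental cultures. 16a was above them in 21 of the 55 genes and below in 4, 16b in 29 and 12, 16c in 30 and 11, and 16d in 29 and 9. The same limit holds for the 106 genes split 4 to 0. There 16a was above all 10 cultures in 15 genes and below in 35, 16b in 14 and 55, 16c in 13 and 41, and 16d in 9 and 51. Over all 4388 genes single spores were outside in 2304 (16a) to 2773 (16d). *TPO2*, a polyamine exporter, had -0.29, -0.71, -0.30 and -0.28 in 16a to 16d, with 1.38 ± 0.18 in S288C and -0.13 ± 0.09 in 59A (SD, n = 5, limma adjusted p = 2.2e-08). *OLE1*, the fatty acid desaturase of yeast, had -0.12, -0.06, 0.04 and 0.31 against 1.26 ± 0.21 in S288C and -0.03 ± 0.18 in 59A. *FZO1*, which mediates mitochondrial fusion, had 0.17, -0.87, 0.47 and 0.44 against 1.30 ± 0.20 and 0.23 ± 0.19, and *YPR076W* had -0.04, 0.10, 0.00 and 0.11 against 0.76 ± 0.17 and -0.18 ± 0.04. In each of these 4 genes most of the 26 other segregants lay on the 59A side too, 23 for *TPO2*, 19 for *OLE1*, 25 for *FZO1* and 20 for *YPR076W*. *TPO2* alone of the 4 kept the 0 to 4 split when the mean of these segregants was the midpoint.

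The most frequent single pattern was that of 16d against its sisters. In 126 of the 142 genes split 3 to 1, 16d was 59A-like and 16a, 16b and 16c were S288C-like, and 122 of the 126 were higher in S288C. With the mean of the other segregants as the midpoint the pattern held 110 genes. *PLC1*, which encodes a phospholipase C, had 1.03 in 16a, 0.54 in 16b, 0.10 in 16c and -1.31 in 16d. Its S288C cultures were at 0.50, 0.89, 0.39, 0.29 and 0.23, and each 59A culture was at -2.32, the lowest value of the scale, so that the 59A level is only bounded. 16d was well below every S288C culture without reaching that floor. Of the 26 other segregants 22 were S288C-like and 3 were 59A-like for *PLC1*. With their mean as the midpoint 16c was called between for *PLC1*.

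Of those 126 genes 85 (67.5%) carry a systematic name only, against 16.0% of all genes on the array and 26.6% of the genes that set the parents apart. Among them are 6 of the 7 that the study's descriptions call retrotransposon genes, a set that the study had chosen on these samples. *YLR410W-B*, which encodes Gag and Pol proteins of a Ty element, had 0.86 in 16a, 0.93 in 16b, 1.16 in 16c and -1.52 in 16d. Its S288C cultures were at -0.04, 0.37, 0.04, -0.01 and -0.09 and its 59A cultures at -0.80, -0.93, -0.86, -0.95 and -0.62. 16a, 16b and 16c thus lay above every S288C culture, 16d lay below every 59A culture, and 16d was the lowest of the 30 segregants. The other 5, *YDR261W-B*, *YPR137C-B*, *YFL002W-A*, *YGR038C-B* and *YLR035C-A*, had 0.65 to 1.02 in 16a, 16b and 16c and -1.51 to -0.99 in 16d. The seventh, *YJL114W*, had 0.11, 0.21, 0.00 and 0.29 and did not set the parents apart. Levels beyond both parents were common in the pattern. 16a, 16b and 16c all exceeded the 10 parental cultures in 46 of the 126 genes, and in 22 of these 16d also fell below all 10. Copies of these elements are near-identical, so that their probes may report the same transcripts many times over. The count of genes is therefore not a count of independent events, and element copies and transcript per copy cannot be told apart by these arrays.

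Single-copy genes with names shared the pattern of 16d. *THI80*, thiamine pyrophosphokinase, had 0.69, 0.59, 0.20 and -0.92 in 16a to 16d, where S288C had -0.09 ± 0.04 and 59A -1.11 ± 0.02 (SD, n = 5, limma adjusted p = 2.4e-09). *SUP35*, a translation termination factor, had 0.24, 0.35, 0.31 and -0.65 against 0.03 ± 0.06 and -0.48 ± 0.09. *CCC2*, a copper-transporting ATPase, had 0.46, 0.06, 0.26 and -0.76 against 0.19 ± 0.14 and -0.53 ± 0.05. *CDC5*, the polo kinase of mitosis, chosen here after its values were seen, had 0.71, 0.45, 0.19 and -1.05 against -0.03 ± 0.13 and -1.42 ± 0.08. In *THI80* and *CDC5* 16d lay above all 59A cultures, whereas in *SUP35* and *CCC2* it lay below them. For *CCC2* 16b was called between when the mean of the other segregants was the midpoint.

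The converse pattern, in which 16d alone was S288C-like, held 11 genes, all higher in 59A. In these 11 genes, as in 122 of the 126 above, 16d was the low spore. The label changed with the parent that was lower, not with the direction of 16d. In 7 of the 11 genes 16d was below all 10 parental cultures. *PHO81*, the inhibitor of the phosphate-signalling kinase, had 0.59, 0.47 and 0.69 in 16a, 16b and 16c and -1.25 in 16d. S288C cultures had -0.60 to -0.29 and 59A cultures 0.06 to 0.23, so that 16d was below every parental culture and the other 3 were above every one. *YCL020W*, with 0.90, 0.68, 0.60 and -2.09, lay in the same way around S288C at -0.78 ± 0.17 and 59A at 0.13 ± 0.25. It carries a systematic name only, and whether it is a retrotransposon copy was not looked up. *BAP3*, an amino acid permease, also belongs here (0.79, 0.68, 0.65 and -0.40, named after its values were seen).

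16c was the 59A-like spore in 15 genes, 14 of them higher in 59A. *INO1*, inositol-3-phosphate synthase, had -0.66 in 16a, -0.84 in 16b, 1.04 in 16c and -0.33 in 16d. The S288C cultures gave -0.76, -0.61, -0.77, -0.89 and -0.90 and the 59A cultures 0.96, 0.86, 1.21, 0.97 and 1.18, so 16c lay inside the range of 59A while 16d was slightly above that of S288C. *HSP12*, a small heat shock protein of membranes, ran the other way, with 0.85, 1.10 and 1.33 in 16a, 16b and 16d and -1.48 in 16c. S288C cultures had 0.66 to 1.17 and 59A cultures -0.79 to -0.36, so that 16c fell below all of them. *SCW4*, a cell wall protein, had -0.15, -0.16, 0.63 and -0.75 against -0.21 ± 0.10 in S288C and 0.74 ± 0.15 in 59A. *CAN1*, the arginine permease, and *ERG20*, an enzyme of sterol synthesis, were among the other 12. With the mean of the other segregants as the midpoint this pattern held 25 genes, *INO1*, *HSP12* and *SCW4* among them.

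The *ASP3* genes set 16c apart in the other direction. They encode the extracellular asparaginase II, which is made when nitrogen is short, and the 4 copies on the array are near-identical and adjacent in the reference. *ASP3-1* had -1.48 in 16a, -1.60 in 16b, 1.65 in 16c and -0.36 in 16d. Its S288C cultures had 0.48, 0.67, 0.46, 0.57 and 0.51 and its 59A cultures -0.63, -0.52, -0.55, -0.73 and -0.59. 16c was above every S288C culture and the highest of the 30 segregants. 16a and 16b gave far lower values than 59A, and 16d gave a slightly higher value. The paper reports that the industrial strain is known to lack these genes. The 59A value therefore need not be *ASP3* transcript, which was not tested, and the spores are not ranked against it. By the mid-parent value the 4 copies were split 1 to 3, and by the mean of the other segregants (-0.48 for *ASP3-1*) 2 to 2 with 16c and 16d on the S288C side. In the other copies 16c had 1.51 to 1.80, 16d -0.22 to -0.18, 16b -1.71 to -1.53 and 16a -1.40 to -0.55. *ASP1*, the cytosolic asparaginase, varied little (-0.36 to -0.10).

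Among the 26 genes split 2 to 2 the pairs 16a and 16b against 16c and 16d made up 20. In 16 of these 16a and 16b were S288C-like, and in 4 they were 59A-like. The pairs 16a and 16d against 16b and 16c made up 5, and 16a and 16c against 16b and 16d a single gene. *YIL067C*, with the largest parental difference, had -0.75 in 16a, -0.77 in 16b, 0.30 in 16c and 0.18 in 16d, where S288C had -0.64 to -0.36 and 59A 0.24 to 0.61. *SPT21*, needed for the expression of histone genes, had 0.64 and 0.42 in 16a and 16b and -0.69 and -0.79 in 16c and 16d. The S288C cultures gave 0.18, 0.32, 0.00, 0.03 and -0.18 and those of 59A -0.76, -0.66, -0.72, -0.86 and -0.75, so 16c and 16d fell among the 59A cultures and 16a and 16b above those of S288C. *YOL153C* (0.45, 0.10, -0.46 and -0.81) and *AFB1*, which encodes a secreted barrier to a-factor (0.30, 0.43, -0.06 and -0.52), had the same pattern. *CLB2*, a mitotic cyclin, *CKA2*, a casein kinase subunit, *RPL18B*, a ribosomal protein gene, and *ADH7*, an alcohol dehydrogenase, were among the other 12 and were named after their values were seen.

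The remaining 2 to 2 patterns held few genes, and *HXT11*, *GAL1*, *YHR049C-A*, *RPP0*, *YAL045C* and *RKM5* of those below lost the 2 to 2 call with the mean of the other segregants as the midpoint. *MPS2*, *DAT1*, *MRX10* and *YPR071W* kept it, as did all 16 genes with 16a and 16b as the S288C-like pair. 16c and 16d were the S288C-like pair in *HXT11*, a hexose transporter gene (0.44 and 0.32 in 16a and 16b, -0.28 and -0.31 in 16c and 16d, with -0.24 ± 0.14 in S288C and 0.58 ± 0.13 in 59A). The same held for *MPS2*, of the spindle pole body (-0.57, -0.45, 0.13 and 0.22), for *GAL1*, galactokinase (-0.10, 0.00, 0.43 and 0.42), and for *YHR049C-A*. 16a and 16d were the S288C-like pair in *RPP0*, a ribosomal stalk protein (-0.06, 0.31, 0.32 and -0.50, with -0.17 ± 0.07 in S288C and 0.40 ± 0.09 in 59A), in *YAL045C*, in *DAT1*, a DNA-binding protein, and in *MRX10*. 16b and 16c were that pair in *RKM5*, a methyltransferase of ribosomal proteins, and 16a and 16c in *YPR071W* (0.47, -0.51, 0.41 and -0.38). No gene had 16b and 16d as the S288C-like pair. The parental differences of these genes were small, and of all 26 only *YIL067C* had parents more than 2-fold apart.

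The division of 16a and 16b against 16c and 16d was also counted with the parents left aside. A rule added after the data were seen asked for a gap of at least 1 and at least 4 s between 2 higher and 2 lower spores, with each pair closer together than 0.5 of that gap. It found 47 genes (1.07% of 4388). In all 47 the pairs were 16a and 16b against 16c and 16d, 14 with 16a and 16b higher and 33 with 16c and 16d higher. With a gap of 0.75 it was so in 94 of 98 genes. Any other pairing needs 16a and 16b at least 2-fold apart, which they were in 39 genes only, so that this count largely restates how alike their arrays were. The parents differed in 10 of the 47 at an adjusted p under 0.01 (limma), where 30.8% of all genes did. *SMB1*, a core protein of the spliceosome, had -1.31 and -1.25 in 16a and 16b and 1.09 and 1.23 in 16c and 16d, with -0.70 ± 0.32 in S288C and -0.44 ± 0.14 in 59A (SD, n = 5). *SPT5*, a transcription elongation factor, had -1.95, -2.32, -0.22 and 0.20, and *YPK1*, a protein kinase of the sphingolipid response, -1.65, -2.09, -0.11 and -0.09. In both the value of 16b is at or near the lower end of the scale. *GZF3*, a GATA repressor of nitrogen genes, was higher in 16a and 16b, with 0.58, 0.72, -0.88 and -1.17, and *KAP122*, a nuclear import receptor, had 0.15, 0.24, -1.45 and -1.22. Of these 5 genes, named after their values were seen, the parents differed at an adjusted p under 0.01 in *YPK1* (limma adjusted p = 0.0039) and *KAP122* (0.0068) and not in the other 3. Of the pairs of these 47 genes only *PTH1* with *CTF8* and *YCR006C* with *SAT4* lay within 5 genes of each other in the reference order.

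Mating type is the classical 2 to 2 trait of a yeast tetrad, and its transcripts did not give a single division. *MATALPHA1*, the activator of alpha-cell genes, had -1.29 and -1.41 in 16a and 16b and 0.03 in both 16c and 16d, and is one of the 47 genes. S288C cultures had -0.25 to -0.03 and 59A cultures -0.05 to 0.18, and the parents, which the methods give as opposite in mating type, differed by -0.21 (S288C minus 59A, limma adjusted p = 0.0093), far less than the spores. *MATALPHA2* had -0.67, -0.47, -0.26 and -0.29. *MF(ALPHA)1*, the main gene of the alpha-factor pheromone, had 0.69, 0.57, 0.16 and -2.32, the last at the floor of the scale, against -0.77 ± 0.21 in S288C and -1.02 ± 0.05 in 59A. *STE3*, the receptor of a-factor on alpha cells, had 0.70, 1.65, 1.42 and 1.65, and *SAG1*, the alpha agglutinin, 0.53, 0.55, -0.04 and -0.09. *AFB1*, the barrier to a-factor named above, was like *SAG1* higher in 16a and 16b (0.30, 0.43, -0.06 and -0.52). Of the a-cell genes *MFA1*, which encodes a-factor, was below every parental culture in all 4 spores (-0.54, -0.74, -0.70 and -0.21, with 0.23 ± 0.11 in S288C and 1.28 ± 0.16 in 59A). *MFA2* had 0.54, 0.00, -0.25 and -0.07, *STE2*, the receptor of alpha-factor, -0.42, -0.12, 0.13 and 0.17, and *STE6*, the exporter of a-factor, -0.60, 0.08, 0.28 and 0.58. 16a was lowest for *STE2*, *STE6*, *STE3* and *MATALPHA2*, 16b for *MATALPHA1*, *MF(ALPHA)2* and *MFA1*, 16c for *MFA2*, and 16d for *MF(ALPHA)1*, *SAG1* and *AFB1*. The mating type of the spores is not given in the labels and was not assigned.

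Single spores stood apart in 130 genes (2.96% of 4388), by a gap of at least 1 and at least 4 s to the nearest sister and with the other 3 spread over less than 0.5 of that gap. 16d accounted for 99 of them, 16c for 17, 16a for 10 and 16b for 4. The genes of 16d include near-identical retrotransposon copies, so the 99 are not a count of independent genes. The smallest gap inside the limit was 1.003 (*YGR176W*) and the largest outside it 0.99997 (*PDB1*). In 88 of the 130 the single spore lay outside all 10 parental cultures. Over all 4388 genes the spores lay outside them in 2304 (16a) to 2773 (16d), so such levels were common in any case.

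**Figure D4:**
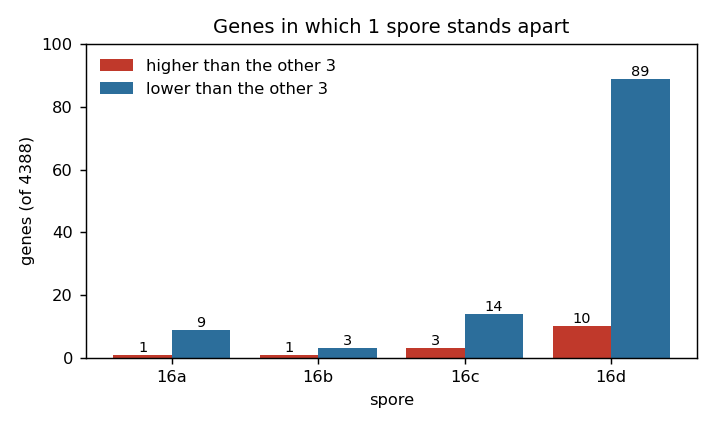
Number of genes of 4388 (vertical axis) in which a spore lay apart from its 3 sisters by at least 2-fold and at least 4 s, higher (red) or lower (blue), for each spore. 16d was lower in 89 genes and 16c in 14, and no other bar exceeds 10. Near-identical retrotransposon copies are among the 89, so that bar is not a count of independent genes.

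16d was lower than its sisters in 89 genes (2.03%) and higher in 10 (0.228%). Of the 89, 73 carry a systematic name only, and 62 are also in the pattern of 126 genes in which 16d alone was 59A-like, which is 69.7% of the 89 and 49.2% of the 126. The 6 retrotransposon genes of that pattern are among the 89. The other genes with a systematic name only were not sorted by element, so 6 is a minimum. Copies of such elements are near-identical, so that the 89 may hold the same transcripts many times over. The widest gaps were those of *YDR034C-C* (1.14, 0.90, 0.88 and -1.95 in 16a to 16d), *YCL020W*, *MF(ALPHA)1* and *YDR261W-A* (0.95, 0.92, 0.84 and -1.63). 16d was the lowest of the 30 segregants in 28 of the 89. Genes with a known product among them were *TSR1*, of 40S ribosome assembly (0.80, 0.55, 0.21 and -1.58), *PUT1*, proline oxidase (-0.12, -0.11, 0.35 and -1.13), *RPN6*, of the proteasome lid (0.71, 0.61, 0.91 and -0.66), and *TIP1*, a cell wall mannoprotein (0.44, 0.46, 0.58 and -1.43, named after its values were seen). In the 4 of widest gap among the 10 genes higher in 16d the sisters had values well below 0. *DIA1*, of invasive growth, had -1.13, -1.31, -1.74 and 0.58, with S288C at -0.54 ± 0.19 and 59A at -0.68 ± 0.09, *EMP24*, of vesicle transport, -1.07, -1.15, -1.36 and 0.47, *SOG2*, of cell morphogenesis, -0.78, -1.01, -1.06 and 0.67, and *YMR262W* -1.09, -0.97, -1.50 and 0.41. In *NUP170*, of the nuclear pore, the sisters had -0.17, 0.13 and 0.30 against 1.36 in 16d. All 10 were above every parental culture in 16d, as were 1341 of all 4388 genes.

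16c was lower than its sisters in 14 genes (0.319%), in all of them below every parental culture, and higher in 3. Over all 4388 genes 16c was below every parental culture in 1303. The stress response list, of which 30 genes were measured, held 5 of the 14. *HSP30*, a stress protein of the plasma membrane, had 1.33, 1.18 and 0.43 in 16a, 16b and 16d and -2.32 in 16c, the floor of the scale. Its S288C cultures varied more than most, with 0.82 ± 0.73, and 59A had -0.73 ± 0.16 (SD, n = 5). *SPS100*, of the spore wall, had 0.54, 0.41, -1.07 and 0.51 against 1.41 ± 0.24 and -0.31 ± 0.07. *CTT1*, the cytosolic catalase, had 0.56, 0.48, -0.77 and 0.62 against 0.16 ± 0.15 and -0.25 ± 0.07. *DDR2*, a stress gene, and *HSP12* (above) are the other 2. Both copies of the metallothionein gene were among the 14, *CUP1-1* with 0.45, 0.36, -1.03 and 0.43 against 0.98 ± 0.22 in S288C and 0.40 ± 0.31 in 59A. They are near-identical in sequence and count as a single measurement. So were 3 ribosomal protein genes of 132, *RPS1A*, *RPS1B* and *RPL10*. *NCE102*, of the eisosomes (0.18, 0.43, -1.26 and 0.09), *NSR1*, of the nucleolus, and *SPC1*, of the signal peptidase, belong to the group as well. The median of the whole stress list was 0.24 in 16a, 0.05 in 16b, -0.16 in 16c and 0.09 in 16d, with 16c the lowest of the 4 in 15 of the 30 genes. The genes higher in 16c were *INO1*, *YJR084W* (-0.18, -0.15, 1.07 and -0.46) and *THI12*, of thiamine precursor synthesis (-1.27, -0.99, 0.13 and -0.88).

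16a and 16b had few genes of their own. *PCA1*, a heavy metal transporter, was higher in 16a (1.80, 0.75, 0.78 and 0.69) and the highest there of the 30 segregants. *HDA1*, a histone deacetylase (-1.16, 0.27, 0.12 and 0.58), *PEX29*, of the peroxisomes (-0.54, 0.87, 1.05 and 0.71), *YMR315W* (-0.88, 0.38, 0.30 and 0.70) and *YLR124W* (-1.33, 0.08, -0.17 and 0.26) were lower in 16a. Both parents were low for *HDA1*, at -1.55 ± 0.16 in S288C and -1.04 ± 0.13 in 59A, so that 16a resembled the parents there and its sisters did not. *SEC18*, of membrane fusion, was higher in 16b (0.14, 1.16, -0.24 and -0.05). *APC5*, a subunit of the anaphase-promoting complex (0.25, -1.26, -0.09 and -0.05), *RPS23A*, a ribosomal protein gene (-0.40, -1.51, -0.09 and -0.16), and *FZO1* were lower in 16b.

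In several other lists the spores took an order. The counts are over the list, whose members were chosen with results of these data known, and were not tested. 16c had the lowest value of the 4 spores in 12 of 17 hexose transporter genes and 16a the highest in 13, and the list's median was 0.37 in 16a, 0.33 in 16b, -0.34 in 16c and -0.18 in 16d (S288C cultures 0.05 to 0.20, 59A cultures 0.09 to 0.45). *GAL2*, the galactose permease, had 0.99, 1.51, -0.42 and 0.07. 16d was lowest in 17 of 25 genes of glycolysis and ethanol formation, with list medians of 0.21, 0.10, 0.00 and -0.25 in 16a to 16d (S288C -0.32 to -0.06, 59A 0.07 to 0.48). *FBA1*, aldolase, had 0.69, 0.38, 0.23 and -0.58 and *PDC1*, the main pyruvate decarboxylase, had 0.28, 0.04, -0.60 and -1.12. 16c was highest in 14 of 18 thiamine genes (medians -0.23, -0.24, 0.14 and -0.41) and lowest in 7 of 8 subtelomeric helicase genes (medians -0.28, -0.36, -0.69 and -0.41, with both parents higher, at 0.11 to 0.83). The helicase genes, and some of the thiamine, hexose transporter and glycolysis genes, belong to families whose probes may read each other's transcripts. None of these counts is therefore a count of independent genes. Over all 4388 genes 16c was lowest in 1067 and highest in 952, 16d was lowest in 1182 and highest in 1394, and 16a was highest in 1186.

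Nitrogen genes had list medians near 0 in 3 of the spores. The median of 22 genes under nitrogen catabolite repression, which are shut when preferred nitrogen sources are present, was 0.03 in 16a, 0.02 in 16b, 0.08 in 16c and -0.21 in 16d. *MEP2*, an ammonium permease, had 0.38, 0.06, 1.29 and -0.46, with -0.22 ± 0.09 in S288C and 0.60 ± 0.25 in 59A (SD, n = 5). *MAE1*, the malic enzyme, had 0.19, 0.15, 0.41 and -0.63 against -0.07 ± 0.15 and 0.37 ± 0.12. For *MEP2*, *MAE1* and *PUT1* 16c was the highest spore and 16d the lowest. *ACT1*, actin, differed between the spores as well (-0.11, -0.33, 0.01 and -0.77).

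The 2 lists that the study drew from loci affecting many transcripts, and which were chosen on these samples, gave 16c the lowest median. In the list of 35 genes assigned to a chromosome II locus the medians were 0.35, 0.39, -0.21 and 0.07 in 16a to 16d, 16c was the lowest spore in 23, and 5 of the 35 were among the 14 genes lower in 16c only. In the list of 42 genes assigned to a chromosome XIV locus they were -0.01, -0.16, -0.34 and 0.12, with 16c lowest in 18 and 16d highest in 21. *JID1* of the latter list had -0.38, -0.12, -2.09 and 0.68, and *MTF1*, the mitochondrial transcription factor, -0.27, -0.19, -1.65 and 1.01. Both parents had similar levels of *JID1*, -0.87 ± 0.08 in S288C and -0.95 ± 0.06 in 59A.

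The mean of the tetrad was often outside the parents. It exceeded all 10 parental cultures in 1015 genes and fell below all 10 in 1178, which together is 50.0% of 4388. With the parental range widened by 1 s on each side the number was 1380 in place of 2193. Single spores were outside in 2304 genes (16a), 2639 (16b), 2507 (16c) and 2773 (16d), where the other segregants ranged from 1862 to 2773 with a median of 2473.5. The tetrad mean followed the mean of the 26 other segregants (r = 0.81 over genes) more than the mid-parent value (r = 0.22 over genes), and the other segregants' mean was itself outside the parental cultures in 1764 genes. Parents and segregants were all measured against a pool of the segregants, and whether they were grown and hybridised in the same series is not given, so strain type and series cannot be told apart.

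In fermentation 16c was the only fast spore, and 16d formed the most acetic acid, glycerol and succinic acid. Traits are given as deposited, 1 value per strain, which by the methods is a mean of 5 fermentations for a parent and of 2 for a segregant, with nitrogen from 1 fermentation, so no test was made. The deposited table holds no errors, the SDs that the study gives elsewhere were not used here, and small differences between strains are not read as an order. The maximum rate of CO2 release was 1.75 g per l and h in 16a, 2.15 in 16b, 2.94 in 16c and 1.60 in 16d, with 1.63 in S288C and 2.94 in 59A. 16c thus had the value of 59A and held rank 2 among the 30 segregants, and 16d was close to S288C. The rate at 50% of the fermentation was 1.33 in 16a, 1.42 in 16b, 2.50 in 16c and 1.27 in 16d, with 1.04 in S288C and 2.33 in 59A. The rate at 70% was 1.00, 1.06, 1.81 and 1.25 in 16a to 16d, against 0.81 and 1.49. Fermentation lasted 103.5 h in 16a, 89.0 h in 16b, 64.25 h in 16c and 93.6 h in 16d, where S288C took 128.0 h and 59A 66.0 h. In each of these 4 traits the widest gap lay between 16c and its sisters, a division of 1 to 3.

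The cell population divided the tetrad in the same way but with 16c on the side of S288C. In units of 1000000 cells per ml it was 145 in 16a, 136 in 16b, 193 in 16c and 123 in 16d, with 195 in S288C and 113 in 59A. Fast fermentation and a large population, each the property of a different parent, were thus found in the same spore. Assimilated nitrogen was the only trait whose widest gap left 2 spores on each side. It was 249 mg per l in 16a and 271 in 16d, 328 in 16b and 330 in 16c, with 234 in S288C and 343 in 59A (the unit is read from the size of the values). That division, 16a and 16d against 16b and 16c, is not the one that most genes split 2 to 2 had.

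Acetic acid was 0.97 g per l in 16a, 0.81 in 16b, 0.72 in 16c and 1.46 in 16d, with 1.12 in S288C and 0.65 in 59A, and 16d was the highest of all 30 segregants. Glycerol was 5.54, 4.83, 5.41 and 6.66 g per l in 16a to 16d, with 5.55 in S288C and 6.50 in 59A, so that 16b had the lowest value of the 4, 16d the highest and close to that of 59A, and 16a a value next to that of S288C. Succinic acid was 0.263, 0.288, 0.305 and 0.421 g per l, with 0.23 in S288C and 0.26 in 59A, so that the value of 16d was farthest above both parents. Pyruvic acid was 0.136, 0.109, 0.125 and 0.175 g per l, with 0.06 in S288C and 0.10 in 59A. 16b was thus next to 59A and 16d farthest above both parents, though the ranks of the spores among 30 were only 16 to 27. 16a and 16b, whose arrays were the most alike, differed by 79 mg per l in assimilated nitrogen, by 14.5 h in duration and by 0.39 g per l and h in the maximum rate.

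**Figure D5:**
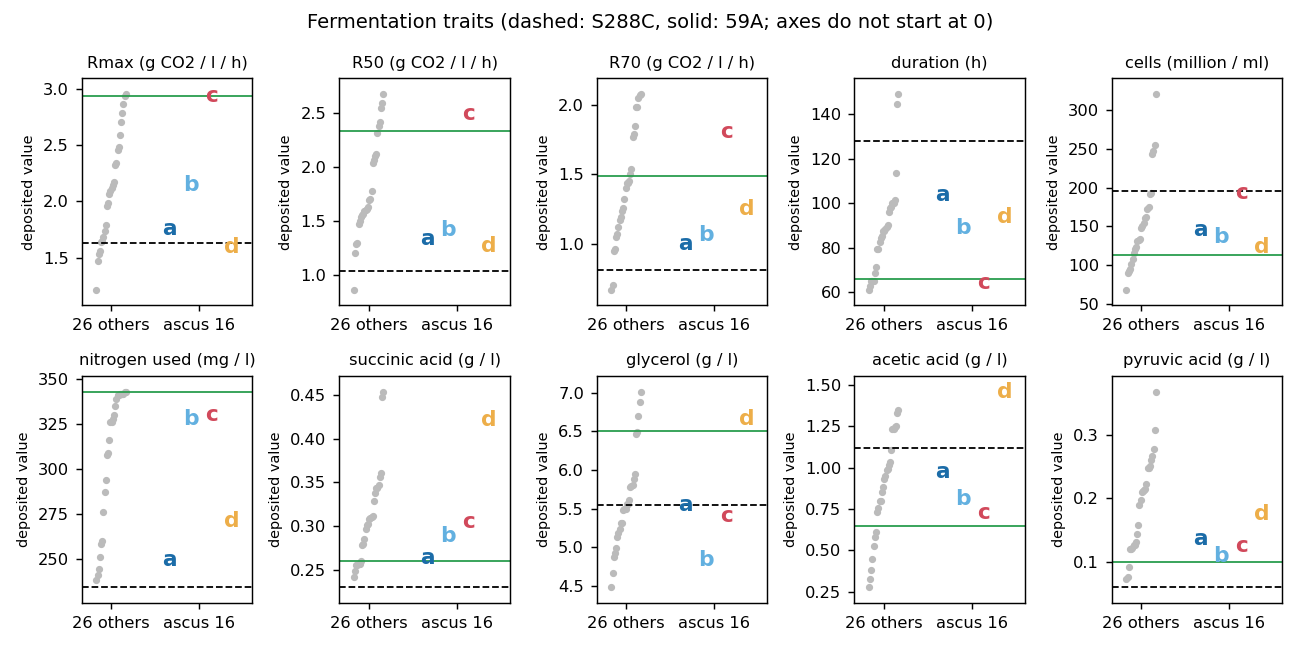
The 10 deposited traits (vertical axes, units in the panel titles, axes not starting at 0) of 16a to 16d (letters), of the 26 other segregants (grey points in rising order, 25 of them for the cell population) and of S288C (dashed line) and 59A (solid line). The letter c stands apart in the rates, the duration and the cell population, and the letter d in acetic acid, glycerol and succinic acid.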

How the data were processed

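The authors deposited log2 ratios of 4388 oligonucleotides on 40 arrays, each of a strain labelled with Cy3 over a pool of the 30 segregants labelled with Cy5. Per the methods and the submitters' processing notes they were normalised in R 2.9.2 with limma by print-tip loess and between-array quantiles, and 2 technical hybridisations were averaged. Quantile normalisation gave every array the same ends, -2.32 and 2.09, so that values there are rank steps and bounds. The table itself does not state the direction of the ratio, which was taken from the methods. The median of an array ran from -0.026 to 0.028, and 53 values were missing, none of them in a spore. The culture volume and the labelling kit are given differently in the labels and in the methods. The second deposited table holds 10 fermentation traits in other units (rates, hours, cells, grams), 1 value per strain as the authors averaged them.

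Of the oligonucleotides 4104 were named through the RefSeq gene table and 284 keep the array's name. S288C and 59A were compared in R 4.3.3 with limma 3.58.1 (lmFit, eBayes, two-sided, 5 against 5 cultures, Benjamini-Hochberg adjustment over 4388, threshold 0.01), and the counting rules were run in Python 3.11.15. The fit and the rules were also run on simulated data, as a check of the code only. That run gives no measure of how well the rules place the spores in the real data, where the tetrad mean was often outside the parents. Where a fit met a missing value, that culture was left out for that gene (11 genes). The tetrad was described by the rules given with each result, with no test among spores.

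Named genes were the 4 of largest parental difference per pattern of 2 to 2, 4 to 0 and 0 to 4, the 4 of widest gap per spore and direction, all mating, asparaginase and mitochondrial genes, genes that the study names, and the 2 of widest range per list. *ADH7*, *BAP3*, *CAN1*, *CDC5*, *CKA2*, *CLB2*, *DAN1*, *DDR2*, *ERG20*, *KAP122*, *NCE102*, *NSR1*, *NUP170*, *PAU9*, *RPL10*, *RPL18B*, *RPS1A*, *RPS1B*, *SMB1*, *SPT5*, *TIP1*, *TIR4*, *YPK1*, both neighbouring pairs, the genes at the limits and the retrotransposon genes were chosen after their values were seen. The members and lists were chosen with earlier results of these data known. Alternatives were other margins, gaps and midpoints, a fold limit, array centring, a replicate block, the methods' t-test and leaving out each parental culture.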

Additional observations from a re-analysis of the deposited data

Results flagged for a closer look

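Among the 40 genes whose parental values are given, 79 groups of 5 cultures were examined for a culture far from the other 4 (a gap over 0.71 of the group's range), and 7 had one, where chance flags about 1 in 20 groups. For *AI2* the culture 59A 3 was at -1.95 and the others at -2.09, which are neighbouring rank steps at the lower end of the scale. For *CDC5* the culture S288C 2 was at 0.20 and the others between -0.10 and -0.08. For *DIA1* the culture 59A 1 was at -0.52 and the others between -0.76 and -0.70. For *MFA1* the culture 59A 1 was at 1.56 and the others between 1.16 and 1.23. For *YIL067C* the culture 59A 1 was at 0.24 and the others between 0.53 and 0.61, and 16c (0.30) and 16d (0.18) lay nearer to it than to the other 4. For *YLR410W-B* the culture S288C 2 was at 0.37 and the others between -0.09 and 0.04. For *YPR076W* the culture S288C 1 was at 0.46 and the others between 0.79 and 0.87.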

How the results depend on the processing

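Of the counts, that of genes split 2 to 2 (26) depended most on the settings. It was 85 with no margin around the midpoint, 7 with a margin of 2 s, 49 and 5 with parents at least 3 s and 6 s apart, 1 with parents over 2-fold apart, 274 where parental cultures only had not to overlap, and 58 or 61 with the mean or median of the other segregants as the midpoint. Genes split 4 to 0 or 0 to 4 (161) numbered 105 with a margin of 2 s, 254 and 76 with parents 3 s and 6 s apart, 33 with parents over 2-fold apart, 588 by non-overlap, and 36 or 41 with the other segregants' mean or median. Genes split 3 to 1 or 1 to 3 (164) numbered 287 with no margin, 86 with parents over 2-fold apart and 607 by non-overlap. A limit of 2-fold left 141 of the 1352 genes between the parents. A gap of 0.75 or 1.5 gave 218 or 62 genes of one spore (130) and 98 or 7 genes with 2 spores against 2 (47), and a parental range widened by 1 s gave 1380 genes with the tetrad mean outside (2193). Causes beyond the stricter or looser limits themselves were not tested.

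Leaving out a parental culture gave 1148 to 1367 genes between the parents, 25 to 32 split 2 to 2, 147 to 183 split 4 to 0 or 0 to 4, 158 to 198 split 3 to 1 or 1 to 3, 129 to 130 of one spore and 2203 to 2348 with the tetrad mean outside. The deviations of same-numbered parental cultures from their strain means had r from -0.29 to 0.39 over genes. In 2 of 5 pairs r was over 0.1, with 0.29 for number 1 and 0.39 for number 4. Pairs of unlike number were not compared, so whether same-numbered cultures shared a batch was not tested. The replicate block gave 1202 genes between the parents, 26 split 2 to 2, 161 split 4 to 0 or 0 to 4, 169 split 3 to 1 or 1 to 3 and 130 of one spore. The methods' t-test, after adjustment, gave 1181 genes between the parents. With 1 array per spore, culture and genotype cannot be told apart, and values at the ends of the scale understate differences.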
